A study of Mus musculus with 2 samples.

Results

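The Mir23, Mir27 and Mir24 genes form a pair of clusters in the mouse genome, Mir23a, Mir27a and Mir24-2 on chromosome 8 and Mir23b, Mir27b and Mir24-1 on chromosome 13. They were taken by gene symbol from the deposited read counts of small RNA in embryonic mouse midbrain. Of the 6 genes, 5 had a row among the 1973 rows that name a microRNA (miRNA) gene. The GENCODE M21 identifier of Mir24-1 matched no row of the tables used here, so Mir24-1 was not analysed here. The samples were midbrain tissue of healthy B6NCrl embryos at 15.5 days of development, pooled over males and females. Replicate 1 pooled 78 embryos and replicate 2 pooled 62, and both carry the same donor label. No other tissue, age, genotype or treatment was measured, so the study has 1 group of 2 libraries.

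A miRNA is cut from a hairpin in a longer transcript and, once loaded into an Argonaute protein, pairs with messenger RNAs mainly through its seed, the bases near its 5′ end. The 2 clusters are copies of an ancestral cluster, and their 3 miRNAs are made from a shared primary transcript in each. Members of these clusters have been studied above all in blood vessels, where they take part in vessel growth, and in lymphocytes, muscle, fat and glia. miR-27 is known for its part in lipid metabolism and differentiation, and miR-24 for its part in the cell cycle and apoptosis.

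The mature sequences are shown because they decide which reads can be told apart between the clusters. All are RefSeq entries (GRCm38.p6, the assembly of mm10) and run 5′ to 3′, with the seed, bases 2 to 8, in capitals. All 6 genes had a hairpin there. miR-23b-3p was not among the entries used here and is named only. The entries of the 3′ arm, the arm from which most reads of these miRNAs are known to come, were the following.
miR-23a-3p (Mir23a): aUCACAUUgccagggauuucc
miR-27a-3p (Mir27a): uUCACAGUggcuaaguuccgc
miR-27b-3p (Mir27b): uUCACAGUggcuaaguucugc
miR-24-3p (Mir24-1 and Mir24-2): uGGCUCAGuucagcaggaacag
The entries of the 5′ arm were the following.
miR-23a-5p (Mir23a): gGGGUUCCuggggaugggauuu
miR-23b-5p (Mir23b): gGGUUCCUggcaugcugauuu
miR-27a-5p (Mir27a): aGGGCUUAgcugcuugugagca
miR-27b-5p (Mir27b): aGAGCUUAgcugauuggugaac
miR-24-2-5p (Mir24-2): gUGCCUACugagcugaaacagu
miR-24-1-5p (Mir24-1): gUGCCUACugagcugauaucagu

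The 27a and 27b 3′ arms share their seed and their first 18 bases and differ at a single position of 21, written C19U (the miR-27a-3p base, the position counted from the 5′ end, the miR-27b-3p base). No other gene of the 1058 with a mature RefSeq entry has this seed. The Mir23a and Mir23b hairpins share an unbroken run of 20 bases that lies over the miR-23a-3p arm. The 5′ arms differ more. Compared without gaps from the 5′ end, the 27a and 27b 5′ arms differ at 8 of 22 positions and the 23a and 23b 5′ arms at 12 of 21, and neither pair shares its seed. The 24-2 and 24-1 5′ arms share their seed and their first 16 bases and differ at 5 of 22 positions.

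For Mir24 the 3′ arm is the same sequence in both genes. The hairpins are shown with their longest shared run, 28 bases that take in the whole of miR-24-3p, in capitals.
Mir24-2: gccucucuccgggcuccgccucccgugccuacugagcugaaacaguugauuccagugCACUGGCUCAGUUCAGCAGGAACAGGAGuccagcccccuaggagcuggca
Mir24-1: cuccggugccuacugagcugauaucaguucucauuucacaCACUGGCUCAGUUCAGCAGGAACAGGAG
A read of miR-24-3p matches both places in the genome. The tables tally reads with several mapping places apart and give them to no gene, and such reads were 37.7% of all reads in replicate 1 and 35.8% in replicate 2. How many of them were miR-24-3p cannot be read from the tables. The counts of Mir24-2 therefore leave out reads of miR-24-3p that fit both places, and are uncertain as a measure of miR-24.

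In the genome (mm10, GENCODE M21), Mir23a lies on the plus strand at chr8:84208518-84208592, Mir27a at chr8:84208672-84208758 and Mir24-2 at chr8:84208815-84208921. The whole cluster spans 404 bases, with 79 bases between Mir23a and Mir27a and 56 between Mir27a and Mir24-2, and no annotated gene other than a miRNA contains any of the 3. Mir23b lies on the plus strand at chr13:63300484-63300557, Mir27b at chr13:63300712-63300784 and Mir24-1 at chr13:63301208-63301275. That cluster spans 792 bases, with gaps of 154 and 423 bases. It lies within 2010111I01Rik, a protein-coding gene on the same strand that is also known as Aopep and encodes an aminopeptidase. Mir23b is in its intron, and Mir27b and Mir24-1 overlap an exon of at least 1 of its transcripts. The opposite strand holds an intron of Fancc, a gene of the Fanconi anaemia DNA repair pathway. Each Mir24 hairpin is overlapped on the minus strand by a Mir3074 hairpin, Mir3074-2 on chromosome 8 and Mir3074-1 on chromosome 13.

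**Figure D1:**
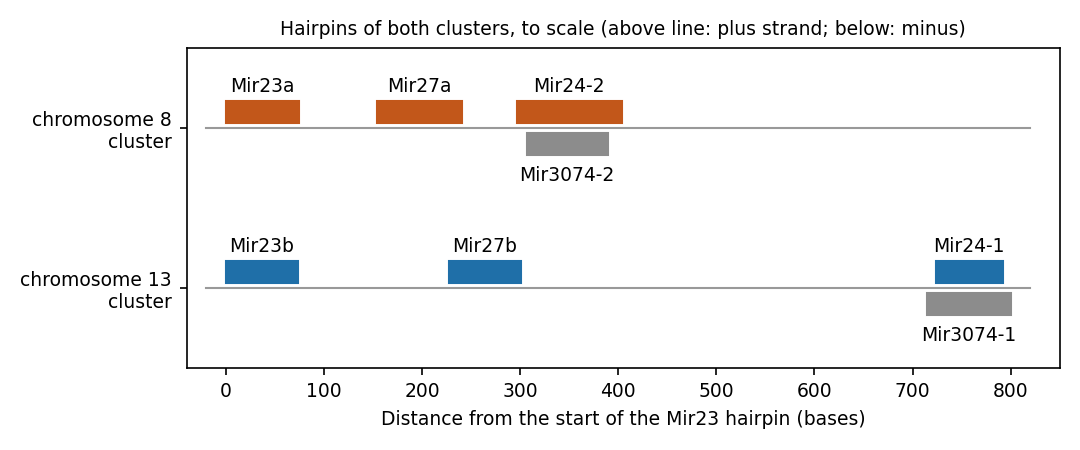
Positions of the hairpins in bases from the start of the Mir23 hairpin of each cluster, with plus-strand genes above the line and minus-strand genes below. The chromosome 8 cluster takes 404 bases and the chromosome 13 cluster 792, and both Mir24 hairpins have a Mir3074 hairpin opposite. Mir24-1 and Mir3074-2 matched no row of the counts used here.

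The tables list 7557669 reads for replicate 1 and 13115314 for replicate 2. Of these, 3429704 and 5752476 were on the sense strand of miRNA genes. Levels are given as CPM, the count of a gene divided by all sense reads of its library and scaled to the same total in both, so that 1 read was 0.292 CPM in replicate 1 and 0.174 CPM in replicate 2. A read of a mature miRNA spans it whole, so counts were not divided by length. The rows do not separate the 2 arms of a hairpin. Intervals are exact Clopper-Pearson intervals at 95% and cover counting error only, since reads were not counted as independent molecules. Counts of different miRNAs are compared here as reads, not as molecules.

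The Mir23 genes dominated both clusters. Mir23b had 32767 reads in replicate 1 and 44541 in replicate 2, or 9554 and 7743 CPM (mean 8648 ± 1281, SD, n = 2). It was the 20th most counted miRNA gene in replicate 1 and the 26th in replicate 2. Mir23a, its counterpart on chromosome 8, had 16324 and 21228 reads, or 4760 and 3690 CPM (mean 4225 ± 756). The lowest Mir23b value lay above the highest Mir23a value, so the libraries did not overlap between these genes.

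Mir27 levels were lower. Mir27b had 2242 and 3040 reads, or 653.7 and 528 CPM (mean 591 ± 88.6). Mir27a had 167 and 205 reads, or 48.7 CPM (95% interval 41.6 to 56.7) and 35.6 CPM (30.9 to 40.9), with a mean of 42.2 ± 9.23. Mir27b was in both libraries far above Mir27a, its counterpart with the same 3′ arm seed.

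Mir24-2 had 237 and 356 reads, or 69.1 CPM (60.6 to 78.5) and 61.9 CPM (55.6 to 68.7), with a mean of 65.5 ± 5.10. From highest to lowest, the order of levels was Mir23b, Mir23a, Mir27b, Mir24-2 and Mir27a in both libraries. No neighbours in this order overlapped across the libraries. The closest were Mir24-2 and Mir27a, whose ratio was 1.42 (1.16 to 1.74) in replicate 1 and 1.74 (1.46 to 2.07) in replicate 2. The Mir24-2 count leaves out reads that fit both Mir24 hairpins, so the place of miR-24 in this order is uncertain. With 2 libraries, no exact test over samples could pass a threshold, and none was run on these levels.

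**Figure D2:**
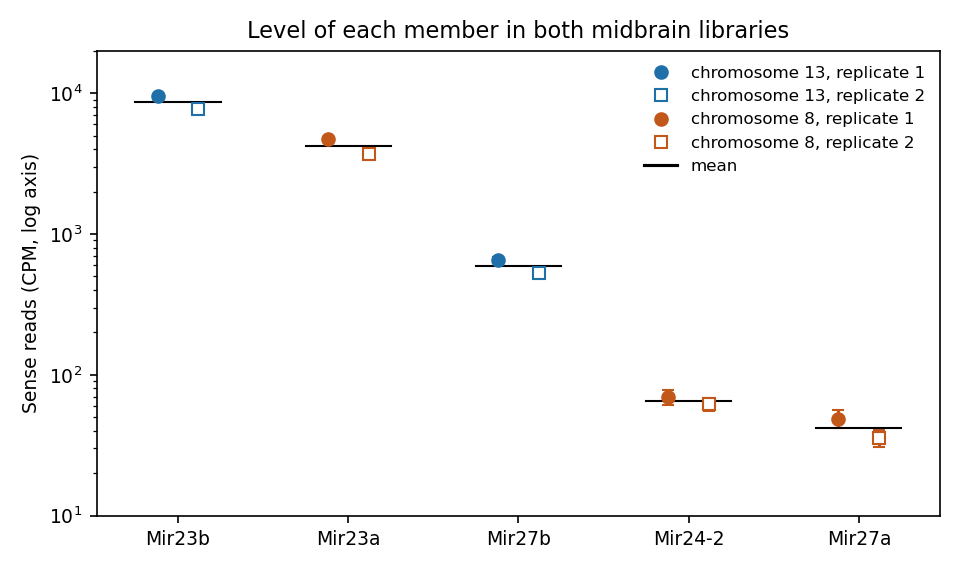
Sense reads of each member in CPM on a log axis, with filled circles for replicate 1, open squares for replicate 2, black lines for the mean and bars for exact 95% counting intervals, which are narrower than the symbols for the higher genes. Levels run from 8648 CPM for Mir23b to 42.2 CPM for Mir27a, and replicate 1 is above replicate 2 for each of the 5 genes.

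Member by member, the chromosome 13 gene was counted more often than its chromosome 8 counterpart, by a smaller factor for Mir23 than for Mir27. The ratio of Mir23b to Mir23a was 2.01 (1.97 to 2.05) in replicate 1 and 2.10 (2.06 to 2.13) in replicate 2. Put as a share, Mir23b held 67.2 ± 0.690% (SD, n = 2) of the reads of this pair. The ratio of Mir27b to Mir27a was 13.4 (11.5 to 15.8) and 14.8 (12.9 to 17.2), and Mir27b held 93.4 ± 0.435% of the reads of that pair. The Mir23 ratio was 1.05 times as high in replicate 2 as in replicate 1, with counting intervals that did not overlap, and the Mir27 ratio 1.10 times, with overlapping intervals. The 18 bases shared from the 5′ end by the 27a and 27b 3′ arms mean that a read ending before base 19 fits both genes, and such reads would be tallied among those with several mapping places. The Mir23 hairpins share 20 bases over the miR-23a-3p arm, so the same limit bears on short reads of that pair. Read lengths are not in the tables. The Mir24 pair could not be compared.

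Within a cluster the members were far from equal. On chromosome 8 the ratio of Mir23a to Mir27a, whose hairpins are 79 bases apart, was 97.7 (83.9 to 114.5) in replicate 1 and 103.6 (90.2 to 119.4) in replicate 2. The Mir23a count exceeded that of Mir24-2 by 68.9 (60.6 to 78.6) and 59.6 (53.7 to 66.4) times. The Mir24-2 count leaves out reads that fit both Mir24 hairpins, so this ratio does not measure miR-23a against miR-24. On chromosome 13 the ratio of Mir23b to Mir27b was 14.6 (14.0 to 15.3) and 14.7 (14.1 to 15.2). The Mir23-to-Mir27 ratio was thus higher on chromosome 8 than on chromosome 13 in both libraries, with intervals that did not overlap.

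**Figure D3:**
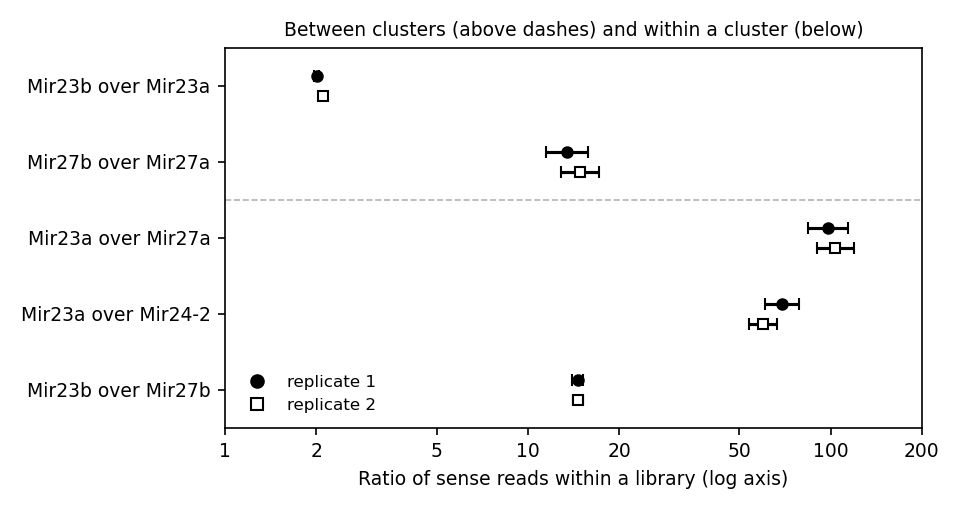
Ratios of sense reads between 2 genes within a library on a log axis, with filled circles for replicate 1, open squares for replicate 2 and bars for exact 95% counting intervals. Above the dashed line the chromosome 13 gene is set over its chromosome 8 counterpart, and below it genes of 1 cluster are set against each other. Of the ratios drawn, Mir23b over Mir23a is the smallest, near 2, and Mir23a over Mir27a the largest, near 100. Mir24-2 over Mir27a, which is smaller, is not drawn. Counts of Mir24-2 leave out reads that fit both Mir24 hairpins.

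Such inequality between genes of 1 cluster was not limited to these genes. The following clusters were chosen for their single primary transcript after values were seen, and no test was run between clusters. In the Mir106b cluster the highest member, Mir93, was 31.8 times Mir25 in replicate 1 and 36.2 times in replicate 2. In the sensory Mir183 cluster the highest member was 3.92 and 3.43 times the lowest. In the Mir17 cluster Mir17 was 2576 and 5378 times Mir19b-1, a numbered copy whose counts are uncertain for the same reason as those of Mir24-2.

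As wholes, the chromosome 13 cluster, from Mir23b and Mir27b, held 10208 CPM in replicate 1 and 8271 CPM in replicate 2, or 0.924 ± 0.137% of all sense reads. The chromosome 8 cluster, from 3 genes, held 4877 and 3788 CPM, or 0.433 ± 0.0770%. The chromosome 13 total was 2.09 and 2.18 times the chromosome 8 total, although it rests on 2 genes. Mir23a made up 97.6% and 97.4% of the chromosome 8 total, and Mir23b 93.6% of the chromosome 13 total in each library. By miRNA, the Mir23 genes together held 14313 and 11433 CPM and the Mir27 genes 702 and 564 CPM, a ratio of 20.4 and 20.3. The cluster totals thus describe the Mir23 genes almost alone. Reads that fit both Mir24 hairpins are in neither total.

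The miR-27 seed has a neighbour in a neuronal miRNA. Bases 3 to 9 of miR-27a-3p are bases 2 to 8, the seed, of miR-128-3p, a brain-enriched miRNA with a gene in each of 2 host genes. The RefSeq entry is shown with its seed in capitals, for comparison with the miR-27 arms above.
miR-128-3p (Mir128-1 and Mir128-2): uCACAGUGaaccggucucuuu
Mir128-1 had 1403 and 1491 CPM and Mir128-2 had 746 and 917 CPM, so each lay above Mir27b in both libraries. As numbered copies with a shared mature arm, their counts leave out an unknown part of miR-128-3p. This match of letters is a description and says nothing of targets.

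Mir24-2 can be set beside other genes whose mature arm recurs. Among 916 genes with both a row and a mature RefSeq entry, 87 shared a mature sequence with another gene. Of those, 50 had a mean of at least 1 CPM, with a median of 141 CPM among the 50, and 28 were at or above Mir24-2. Of the 829 with no shared mature sequence, 376 reached 1 CPM, with a median of 49.2 CPM among the 376. In that group 180 were at or above Mir24-2. Every listed mature sequence was shared in 34 genes, of which 8 reached 1 CPM. Numbered copies with a mean of at least 100 CPM in the highest copy came from 14 families, and in 13 of them the copies shared a mature entry. The exception was Mirlet7a. A shared arm may be unlisted there, since the entries used here are not complete and lack miR-23b-3p. The highest copies of the 14 families ran from Mir129-2 at 194 CPM to Mir181a-1 at 5631 CPM. Mir24-2, at 65.5 CPM, did not reach the 100 CPM at which families were counted.

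Opposite Mir24-1, the row of Mir3074-1 had 702 sense reads in replicate 1 and 1275 in replicate 2, or 205 and 222 CPM (mean 213 ± 12.0). That is above Mir24-2 and below Mir27b in both libraries. The mature entry of Mir3074-1, miR-3074-5p, overlaps miR-24-3p by 20 of its 22 bases on the other strand and is the same sequence in Mir3074-2, so its reads too have several mapping places.
miR-3074-5p (Mir3074-1 and Mir3074-2): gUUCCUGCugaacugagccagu
The row carries an earlier version of the identifier than GENCODE M21, and the strand of the earlier gene model was not read here. Which arm, or which strand of this locus, the reads of that row came from is therefore uncertain. Its level is given as that of the row and not as a measure of Mir24-1.

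Each of the 5 members was counted at a lower level in replicate 2 than in replicate 1. Ratios between the libraries are of replicate 2 over replicate 1 on the log2(CPM + 1) scale after TMM scaling, which understates changes of low genes. Their counting intervals are of the ratio without the added 1 CPM. The log2 ratio was -0.40 for Mir23a (95% counting interval -0.43 to -0.37) and -0.34 for Mir23b (-0.36 to -0.32). It was -0.34 for Mir27b (-0.42 to -0.26) and -0.47 for Mir27a (-0.79 to -0.18). The interval of Mir24-2 (-0.19, -0.43 to 0.051) included equal levels.

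By the two-sided conditional exact binomial test, with Benjamini-Hochberg adjustment over 717 genes with a read, 4 of the 5 members were higher in replicate 1. Adjusted p was 1.84e-152 for Mir23a, 2.45e-220 for Mir23b, 6.05e-16 for Mir27b and 0.00952 for Mir27a, and 0.36 for Mir24-2, which was not called. Over all genes tested, 10% (72 genes) were called higher in replicate 1, 9.76% higher in replicate 2 and 19.8% in either direction. Among the 203 genes whose mean reached 100 CPM, where the test has the reads to call small ratios, 29.1% were called higher in replicate 1. The 3 members above that level, Mir23a, Mir27b and Mir23b, were at places 3, 5 and 6 of the 203 when log2 ratios were ordered from the lowest.

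That test sets these libraries against each other with counting error alone, and with 1 library a pool the differences could not be checked in replicates. When edgeR's exact test was given a fixed coefficient of variation of 10%, 0 of the 5 members were called (0.418% of all genes), and 0 of them had an unadjusted p under 0.05. The unadjusted p of Mir23a was 0.0509 and its adjusted p 1. In folds, replicate 1 was 1.32 times replicate 2 for Mir23a, 1.26 for Mir23b, 1.27 for Mir27b, 1.39 for Mir27a and 1.14 for Mir24-2. The median log2 ratio was -0.34 over the 5 members and -0.0023 over the 474 genes whose mean reached 1 CPM. Of those 474 genes, 50.6% had a negative ratio and 21.7% a ratio at or below that of Mir24-2.

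**Figure D4:**
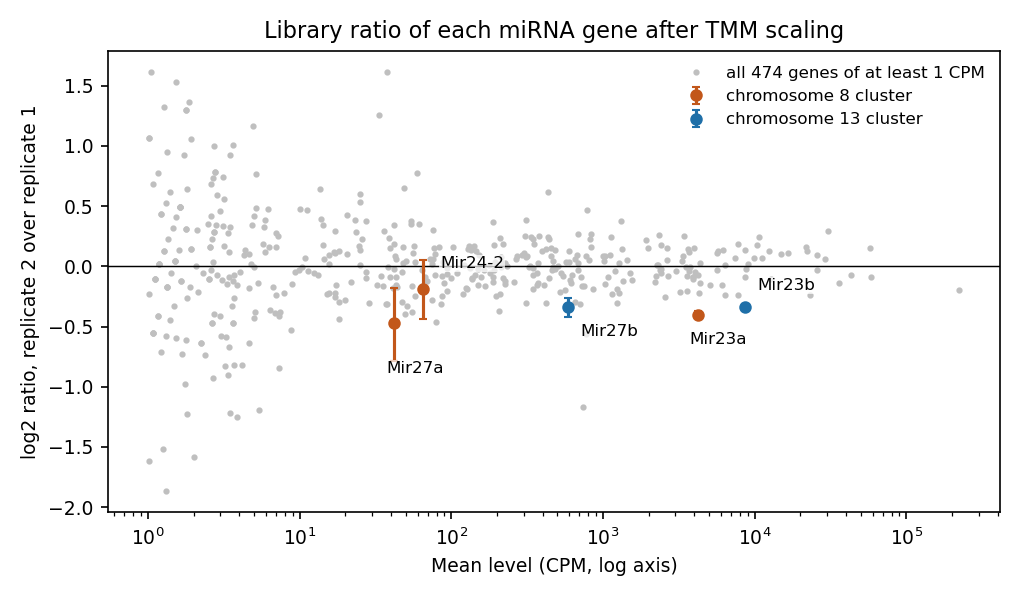
Log2 ratio of replicate 2 over replicate 1 after TMM scaling against mean level in CPM on a log axis, with grey points for the 474 genes whose mean reached 1 CPM and coloured points for the members. Bars are 95% counting intervals of the members, for the ratio without the added 1 CPM. The members lie between -0.19 and -0.47, all below 0, and the spread of the grey points widens toward low levels.

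The most counted markers of endothelium and of mural cells, Mir126a and Mir143, were also higher in replicate 1, while other vessel miRNAs were mixed. All 3 genes of the sensory Mir183 cluster were called higher in replicate 1 too. Their log2 ratios were -0.56 (Mir182), -0.37 (Mir96) and -0.29 (Mir183). Mir126a, the miRNA of endothelium, had 24909 and 21568 CPM (log2 ratio -0.24, higher in replicate 1 by the same test), and Mir126b was not analysed here. Of the mural and smooth muscle markers, summing to 6392 and 5868 CPM, Mir143 had a log2 ratio of -0.16 and was called higher in replicate 1, Mir145a at 0.058 was not called, and Mir145b had no reads, which allows up to 0.875 CPM in replicate 1 and 0.522 CPM in replicate 2 (3 reads). For scale, 10% of the 717 genes tested were called higher in replicate 1 and 9.76% higher in replicate 2. Among the 203 genes whose mean reached 100 CPM, 29.1% were called higher in replicate 1. The share called higher in replicate 2 was not computed at that level. Of a list of 14 miRNAs of vessels and blood vessel growth, 12 had a row and 11 had a read. Of the 11, 4 were called higher in replicate 1 and 2 higher in replicate 2. Those higher in replicate 1 were Mir126a, Mir143, Mir92a-1 (log2 ratio -0.30, listed as Mir92-1), a copy in the Mir17 cluster, and Mir210 (-0.31), which is induced by low oxygen. Mir92-1 shares a mature entry with Mir92-2, so its count leaves out reads that fit both. Those higher in replicate 2 were Mir130a (0.059) and Mir296 (0.12). The median over the 11, each with a mean of at least 1 CPM, was -0.12. It compares with a median of -0.0023 over the 474 genes whose mean reached 1 CPM. Over all 717 genes tested, which include genes of lower level, the median was 0.036. In bulk tissue, fewer cells of a type and less RNA per cell cannot be told apart. The part of vessel cells in the ratios of the members was not tested.

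Neural markers were mixed, with more calls toward replicate 2. The shares over all 717 genes tested were 9.76% called higher in replicate 2 and 10% higher in replicate 1. The latter share was 29.1% among the 203 genes whose mean reached 100 CPM. The share called higher in replicate 2 was not computed at that level, so 9.76% is not a like background for abundant genes. Of 11 listed neural markers, 10 had a row and a read, 4 were called higher in replicate 2, namely Mir9-3, Mir137, Mir128-2 and Mir153, and Mir92b was called higher in replicate 1 (log2 ratio -0.045). The other 5, among them the Mir124a copies with at most 19 reads a library, were not called. The list summed to 20715 and 22052 CPM. This sum leaves out reads that fit several places, which can arise from the mature entry shared by the Mir9 copies or by the Mir128 copies. The Mir124a rows are numbered copies too, so their low counts are uncertain as a measure of miR-124. The neuronal Mir137, at 10800 and 11585 CPM, was above every member of the clusters. In a list of 14 neuronal and glial miRNAs, 13 had a row and a read, 2 were called higher in replicate 1 and 4 higher in replicate 2, with a median log2 ratio of 0.0060. The 2 were Mir21a (-0.20), which is common in glia and in many dividing cells, and Mir219a-2 (-0.23) of the oligodendrocyte lineage.

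Markers of other tissues were counted too, and the Hox miRNA Mir10a had a mean of 783 CPM, above that of Mir27b. Hox cluster miRNAs, which mark hindbrain and spinal cord, summed to 1008 CPM in replicate 1 and 1481 CPM in replicate 2. Of the 5 listed, 4 had a read and were tested. Of these 4, 3 were called higher in replicate 2. They were Mir10a (649 and 917 CPM, log2 ratio 0.46), Mir10b (339 and 532 CPM, 0.62) and Mir196b (19.5 and 30.8 CPM, 0.60). Their ratios were opposite in sign to those of the members. The share called higher in replicate 2 over all 717 genes tested was 9.76%. That share includes genes with few reads, and it was not computed for abundant genes alone. It is therefore not a like background for Mir10a and Mir10b. Red cell markers summed to 197 and 208 CPM from the 3 of 4 that had a row, and markers of white cells and microglia to 334 and 319 CPM from 4 of 5. Muscle markers summed to 35.9 and 71.1 CPM from 7 of 8. Of these Mir208b, at 19.0 and 47.6 CPM, was called higher in replicate 2 (log2 ratio 1.25), and Mir1a-1, Mir133a-1 and Mir133a-2 had no reads. The last 3 are numbered copies, and reads that fit several places are counted for no gene. Their counts of 0 therefore do not show that these miRNAs were absent. The part of these tissues in the ratios of the members was not tested.

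The genes nearest to each member, by Euclidean distance over log2(CPM + 1) in the 2 libraries, differed from gene to gene. Mirlet7b (4585 and 4028 CPM, distance 0.14) and Mir98 (4558 and 4226 CPM, 0.21), both of the let-7 family, were nearest to Mir23a. Mir127 (8825 and 8497 CPM, 0.18) and Mir20a (8726 and 8800 CPM, 0.23) were nearest to Mir23b. Mir330 (593 and 531 CPM, 0.14) and Mir101a (634.7 and 590.7 CPM, 0.17) were nearest to Mir27b. Mir218-2 (43.4 and 39.1 CPM, 0.21) and Mir30c-2 (46.4 and 41.9 CPM, 0.24) were nearest to Mir27a, and Mir1264 (67.1 and 61.2 CPM, 0.046) and Mir31 (67.9 and 65.4 CPM, 0.081) to Mir24-2. No member had another member among its nearest 2 genes. With 2 libraries, likeness by this measure is mostly likeness of level.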

How the data were processed

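Small RNA under 30 bases was sequenced from 2 pools of embryonic midbrain, per the labels. The authors deposited whole read counts per miRNA gene, without normalization, in columns for either strand, the sense strand and the opposite strand. Per the file headers of the deposited readme, reads were aligned to mm10 with GENCODE M4, while aligner, counter and settings were not given in the sources used here. Rows that name no gene held, in replicates 1 and 2, 13.4% and 16.9% (unmapped), 37.7% and 35.8% (several mapping places), 3.57% and 3.43% (outside genes) and 0% (ambiguous) of reads. Library sizes and tests left them out.

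Symbols and positions came from GENCODE M21 on the same assembly, which matched 1894 of 1973 identifiers, and lists were matched by symbol or RefSeq synonym. The 79 unmatched rows held 2 and 5 reads. Sense counts were used as CPM, and edgeR 4.0.16 gave TMM factors. No contrast between groups exists, so edgeR's quasi-likelihood test was not used. The test of library ratios was a conditional exact binomial test, two-sided, in R 4.3.3, called at an adjusted p under 0.05, with a pseudocount of 1 CPM for the ratio. The test was tried on simulated counts. Counts differed between the libraries by more than sampling noise (chi-square 27185 on 468 degrees of freedom). The labels call them biological replicates.

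Alternatives were DESeq2 1.42.0 size factors, total counts, upper-quartile scaling, counts on either strand, pseudocounts of 0.1 and 10, a filter at 1 CPM, a total with reads of several mapping places, edgeR's exact test with a fixed coefficient of variation of 10%, and leaving out a replicate. Named genes were the members, their opposite-strand partners and hosts, the 2 nearest genes of each member, 2 lists, cell type markers and numbered copies. Members and lists were chosen with earlier results of these data known. The clusters set beside the members for scale were chosen after values were seen.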

Additional observations from a re-analysis of the deposited data

Results flagged for a closer look

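Reads outside the counts of the members appeared at the Mir24-1 locus. The row of Mir3074-1, the gene on the opposite strand, had 702 sense reads in replicate 1 and 1275 in replicate 2, above the 3 reads that a count of 0 allows. The same row had 28 reads on the strand opposite to its gene model in replicate 1 and 36 in replicate 2. Opposite-strand reads of the 5 members ran from 0 to 3. The log2 ratio of the Mir3074-1 sense reads was 0.081 (95% counting interval -0.053 to 0.22, exact binomial adjusted p 0.558), while those of the 5 members were negative.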

How the results depend on the processing

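The calls and signs of the members' log2 ratios were kept in 20 of 20 values from other scalings and counts on either strand. Pseudocounts enter the ratio and not the test. With them included, the ratios ranged from -0.48 to -0.16. The number of members called higher in replicate 1 was 4 with every scaling, count column and filter run, and 0 with edgeR's exact test at a fixed coefficient of variation of 10%, whose construction allows for more spread than counting. With reads of several mapping places added to the total, mean levels fell by construction to 4742 CPM for Mir23b, 2316 for Mir23a, 324 for Mir27b, 35.9 for Mir24-2 and 23.1 for Mir27a. Leaving out a replicate gave the value of the other library, as printed for each, which with 2 libraries cannot fall outside 1 SD of their mean and shows nothing of stability. A library ratio has no value with a replicate left out, and Mir24-1 over Mir24-2 was not run, since Mir24-1 was not analysed here. No paired analysis was possible because there is 1 group. Depth limits Mir27a and Mir24-2 most, at 167 to 356 reads a library.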
